A study of Mus musculus with 4 samples.

Results

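The 10 genes described here were listed as dendritic cell markers, although not all are particular to these cells. They were followed in RNA-seq libraries of medullary thymic epithelial cells (mTECs): *Flt3*, *Zbtb46*, *Batf3*, *Clec9a*, *Siglech*, *Tcf4*, *Cd209a*, *Cd209b*, *Clec10a* and *Mgl2*. They were taken by symbol from the deposited count table, and all 10 of the 10 were found among its 23337 genes. All 10 also passed the filter on low counts that left 18547 genes for testing.

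The 4 libraries came from C57BL/6 mice at 4 weeks of age, 2 labelled wild type (WT) and 2 labelled *Sirt6*-/-. In the latter, called *Sirt6* cKO after the study, Cre driven by the *Foxn1* promoter, which is active in thymic epithelium, removes a loxp-flanked part of *Sirt6*, the gene of a histone deacetylase. Control mice carried no *Foxn1*-Cre and were littermates or age-matched. mTECs had been sorted as CD45-, EpCAM+, UEA-1+ and Ly51- cells, a gate that should remove dendritic cells because they carry CD45. The labels do not tie a library to a mouse, a litter or a pool, so the p-values measure the spread between these libraries, which may be partly technical.

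Dendritic cells capture antigen and show it to T cells on MHC molecules. Conventional dendritic cells fall into a *Batf3*-dependent type 1 (cDC1) and a type 2 (cDC2), and plasmacytoid dendritic cells (pDCs) are specialised in type I interferon production. In the thymic medulla dendritic cells lie next to mTECs, take up antigens that mTECs make, and take part in deleting self-reactive T cells and in generating regulatory T cells. C-type lectins such as those of the CD209 family are sugar-binding receptors that dendritic cells share with macrophages.

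Among the 10 genes, *Cd209b* stood apart: it had 215 and 122 reads in the WT libraries and 9 and 17 reads in the libraries labelled *Sirt6* cKO, a fitted 12.4-fold lower level. For the other 9 genes edgeR's quasi-likelihood test, which is used throughout, made no call in either direction at an unadjusted p of 0.05. At an adjusted p of 0.05, edgeR called 0 of the 10 and DESeq2 called *Cd209b* alone. *Siglech*, the most abundant of the 10, was at 52.0 to 72.7 TPM, the authors' abundance scaled for transcript length and library, in all 4 libraries. A lower level in such bulk samples can come from fewer cells of a type or from less RNA per cell, and these cannot be told apart here.

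Sequencing depth was similar, with 61102704 to 65907745 counts per library. *Epcam*, the epithelial surface gene of the sort, was at 798 to 1201 TPM, and *Ptprc*, which encodes CD45, was at 106 to 177 TPM, although the gate excluded CD45+ cells. The targeted gene, *Sirt6*, had 622 and 755 reads in WT and 882 and 835 in *Sirt6* cKO (log2 fold change 0.37 ± 0.32, SE; edgeR adjusted p = 0.800). *Sirt6* reads thus did not fall with the label. The count is of the whole gene, which includes any part that Cre does not remove. Each direction below rests on the labels.

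The 7 CD209 genes lie together on mouse chromosome 8, and *Cd209b* spans chr8:3917655-3926844 on the minus strand of GRCm38, with *Cd209a* at chr8:3743397-3748984 on the same strand. The bases upstream of the start of each gene are shown because *Cd209b* carried the largest fold change of the 10 genes and *Cd209a* is the other CD209 gene among them. The sequences are from RefSeq on GRCm38.p6, at chr8:3926842-3927091 for *Cd209b* and chr8:3748985-3749234 for *Cd209a*, printed 5′ to 3′ on the minus strand. They hold the 250 bases before the start, and capitals mark the motif CCGGAA, the core bound by ETS factors, or its other strand TTCCGG.
Cd209b: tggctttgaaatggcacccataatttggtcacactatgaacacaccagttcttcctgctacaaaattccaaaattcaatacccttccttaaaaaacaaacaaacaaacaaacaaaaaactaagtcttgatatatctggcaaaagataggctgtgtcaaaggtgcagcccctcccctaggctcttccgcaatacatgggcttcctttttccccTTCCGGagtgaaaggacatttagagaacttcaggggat
Cd209a: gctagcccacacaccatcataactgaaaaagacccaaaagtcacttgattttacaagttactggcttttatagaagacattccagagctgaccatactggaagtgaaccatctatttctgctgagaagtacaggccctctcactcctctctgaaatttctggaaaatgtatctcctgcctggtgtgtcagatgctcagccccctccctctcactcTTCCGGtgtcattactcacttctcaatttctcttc

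The motif lay 38 to 33 bases upstream of the start in *Cd209b* and 35 to 30 bases upstream in *Cd209a*. The motif was searched in 8 of the 10 genes, without *Clec10a* and *Tcf4*. Of these 8, *Cd209b* and *Cd209a* were the 2 that held it. It was in 5 of the 7 CD209 genes, against 12.0% of 32851 mouse promoters of the same length searched on both strands. The motif was picked after the sequences had been seen, and *Cd209f* and *Cd209g* are near copies, so the share is a description only. Windows of 30 bases around the motif are shown for the 5 genes, again with the motif in capitals.
Cd209a, chr8:3749002-3749031, minus strand: tccctctcactcTTCCGGtgtcattactca
Cd209b, chr8:3926862-3926891, minus strand: tcctttttccccTTCCGGagtgaaaggaca
Cd209e, chr8:3854380-3854409, minus strand: ctcctctaccccTTCCGGtgctggaactaa
Cd209f, chr8:4105873-4105902, minus strand: cccatgtctcttTTCCGGggtgagggtgtc
Cd209g, chr8:4134584-4134613, plus strand: cccatgtctcttTTCCGGggtgagggtgtc

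The windows of *Cd209f* and *Cd209g* were the same letters, while those of the other 3 genes differed from each other around the motif. Of these 5 genes, 4 had a fitted level below WT in *Sirt6* cKO and *Cd209e* one above it, and edgeR called *Cd209b* and *Cd209f* at an unadjusted p of 0.05. A further 3 motifs were searched on both strands in the same windows. GAGGAA, a purine-rich box that shares the letters GGAA with the ETS core, was in 2 of the 8 promoters (*Batf3* and *Mgl2*) and in 23.3% of all promoters. TGANTCA, a site of AP-1 type, was in 1 of the 8 (*Zbtb46*) and in 6.75% of all. CANNTG, the E-box that E proteins such as the product of *Tcf4* bind, was in 7 of the 8 and in 66.2% of all. *Cd209b* was the gene without it. For *Zbtb46*, *Batf3*, *Cd209c* and *Cd209g* the 250 bases searched lie before a RefSeq start but inside the gene as GENCODE places it. Those of *Zbtb46*, at chr2:181424389-181424638, fall within a gene that spans chr2:181387762-181459426 on the minus strand.

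Reads could be shared between family members, and 2 pairs show how far. The coding sequence of *Cd209b* was closest to that of *Cd209d*, with 77.4% of aligned bases identical, and no 50-base word of the longest *Cd209b* transcript occurred in another gene. Their longest stretch of identical bases is shown with 30 bases on each side, in which the capitals mark the 10 bases that differ (GRCm38; *Cd209b* coding bases 691 to 775, *Cd209d* coding bases 424 to 508).
Cd209b: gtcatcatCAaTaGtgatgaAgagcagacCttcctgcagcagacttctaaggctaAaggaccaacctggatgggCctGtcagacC
Cd209d: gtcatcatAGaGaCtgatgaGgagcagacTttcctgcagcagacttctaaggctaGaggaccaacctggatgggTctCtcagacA

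*Clec10a* and *Mgl2*, by contrast, lie side by side on chromosome 11 (chr11:70156197-70170834 and chr11:70130329-70137550, plus strand) and were 88.5% identical over 913 aligned coding bases. They share a run of 183 identical coding bases, which is coding base 502 to 684 of *Clec10a* and 550 to 732 of *Mgl2*, and which reads as follows.
Clec10a and Mgl2: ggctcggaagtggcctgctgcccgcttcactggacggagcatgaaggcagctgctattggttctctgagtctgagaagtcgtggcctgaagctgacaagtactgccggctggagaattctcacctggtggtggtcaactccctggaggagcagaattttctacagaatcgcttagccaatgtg

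Of the 50-base words of the longest *Mgl2* transcript, 15.3% also occurred in *Clec10a*, and 10.6% of those of *Clec10a* occurred in *Mgl2*. How the authors' pipeline placed reads that match both is not given in the sources used here, so the split of reads between *Clec10a* and *Mgl2* is uncertain. *Clec9a* overlaps the exons of *Clec1b* by 184 bases on the same strand, and reads from that stretch could have been counted for either gene.

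The levels of the 10 genes, compared per transcript length in TPM, fell into an order that began with *Siglech* at a mean of 62.5 TPM over the 4 libraries. *Tcf4* followed at 28.1, *Zbtb46* at 16.7 and *Batf3* at 11.6 TPM. *Flt3* was at 6.95, *Clec10a* at 6.67, *Mgl2* at 6.00 and *Cd209a* at 5.22 TPM, and *Clec9a* at 2.26 and *Cd209b* at 1.61 TPM came last. The range of *Siglech* lay clear of that of *Tcf4*, but each of the other 8 neighbouring pairs in this order overlapped in range. For scale, *Siglech* was at 5.02% to 7.80% of the TPM of *Epcam* within a library, and *Flt3* at 0.474% to 1.40%.

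**Figure D1:**
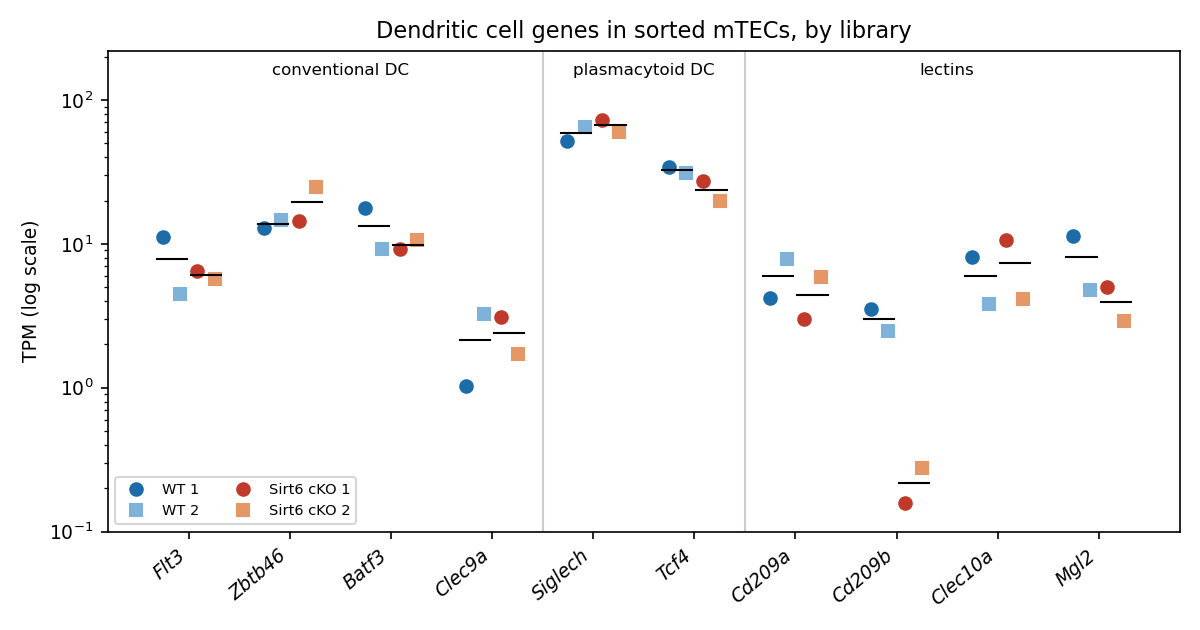
TPM of each of the 10 dendritic cell genes (log axis) in the 2 WT libraries (blue) and the 2 *Sirt6* cKO libraries (red and orange), with a black bar at the mean of each group. *Cd209b* sits at 3.53 and 2.49 TPM in WT and at 0.157 and 0.276 TPM in *Sirt6* cKO, while *Siglech* stays between 52.0 and 72.7 TPM.

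The conventional dendritic cell genes came first by role. *Flt3*, the receptor for the growth factor that drives dendritic cell development, had 1237 and 466 reads in WT and 656 and 609 in *Sirt6* cKO. Both *Sirt6* cKO libraries lay between the WT libraries, so the groups overlapped. Its log2 fold change was -0.36 ± 0.51 (SE; edgeR adjusted p = 0.896), with a 95% interval from -1.66 to 0.93. Without WT 1, the library with the most *Flt3* reads, the fold change turned to 0.45.

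*Zbtb46*, a zinc-finger transcription factor that sets conventional dendritic cells apart from other myeloid cells, had 982 and 984 reads in WT and 1002 and 1825 in *Sirt6* cKO. The WT libraries were nearly level, and *Sirt6* cKO 2 alone was well above the rest. Scaled to library size as CPM, WT was at 15.2 ± 0.325 (SD, n = 2), while *Sirt6* cKO was at 22.5 ± 8.38 (SD, n = 2). The groups did not overlap in CPM, but in TPM WT 2 (14.6) was level with *Sirt6* cKO 1 (14.5). Its log2 fold change was 0.56 ± 0.36 (SE; edgeR adjusted p = 0.717), and it was 0.11 without *Sirt6* cKO 2.

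*Batf3*, the transcription factor that cDC1s require, had 380 and 187 reads in WT and 181 and 221 in *Sirt6* cKO. As for *Flt3*, WT 1 alone was high and the other 3 libraries were close together. For *Batf3* the log2 fold change was -0.44 ± 0.59 (SE; edgeR adjusted p = 0.887), and it turned to 0.11 without WT 1. *Clec9a*, a cDC1 receptor that recognises dead cells, had 102 and 297 reads in WT and 278 and 163 in *Sirt6* cKO. Here WT 1 was the lowest library, the reverse of *Batf3*, although both genes are cDC1 markers. The log2 fold change of *Clec9a* was 0.20 ± 0.76 (SE; edgeR adjusted p = 0.966) and changed sign without WT 1 (-0.41) or without *Sirt6* cKO 1 (-0.29).

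The plasmacytoid genes were the most abundant of the 10 by mean TPM. *Siglech*, a surface receptor of pDCs, had 3761 and 4450 reads in WT and 4829 and 4228 in *Sirt6* cKO, so the groups overlapped. Its log2 fold change was 0.20 ± 0.23 (SE; edgeR adjusted p = 0.873), with a 95% interval from -0.39 to 0.78. This interval does not reach a 2-fold change in either direction. *Tcf4*, which encodes the E protein E2-2 that pDC identity depends on and which is also expressed outside the blood lineages, had 7524 and 6462 reads in WT and 5501 and 4276 in *Sirt6* cKO. Both *Sirt6* cKO libraries were below both WT libraries. *Tcf4* had a log2 fold change of -0.46 ± 0.24 (SE; edgeR adjusted p = 0.655), with a 95% interval from -1.05 to 0.14, and it stayed below 0 with any library left out (-0.70 to -0.26).

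Of the 4 lectins, *Cd209a*, also named DC-SIGN in the mouse, had 187 and 332 reads in WT and 124 and 256 in *Sirt6* cKO. Each group held a low and a high library, and the groups overlapped. *Cd209a* had a log2 fold change of -0.42 ± 0.66 (SE; edgeR adjusted p = 0.909), and one of 0.08 without WT 2.

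*Cd209b* encodes SIGN-R1, a receptor for bacterial polysaccharides that is best known from macrophages of the splenic marginal zone and of lymph nodes. Its level was 3.28 and 1.92 CPM in WT and 0.149 and 0.265 CPM in *Sirt6* cKO, a mean of 2.60 ± 0.967 (SD, n = 2) against 0.207 ± 0.0820 (SD, n = 2). The groups were far apart compared with the spread within them. The exact 95% Poisson intervals of the counts, which cover counting error only, were 187 to 246 and 101 to 146 reads in WT and 4.12 to 17.1 and 9.90 to 27.2 reads in *Sirt6* cKO. The log2 fold change was -3.64 ± 1.02 (SE), with a 95% interval from -6.21 to -1.06. edgeR gave it an unadjusted p of 0.0144 and, over all 18547 genes, an adjusted p of 0.541.

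DESeq2 gave *Cd209b* a log2 fold change of -3.66 and an adjusted p of 0.0435, just inside the threshold. Over the 9 alternatives on all 4 libraries the adjusted p ranged from 0.0435 to 0.777 and the unadjusted p from 0.000764 to 0.0437. The log2 fold change ranged from -3.72 to -1.71 over these alternatives, with -1.71 on the log2(TPM + 1) scale of limma, and from -4.12 to -3.22 with 1 library left out. The unadjusted p of edgeR missed 0.05 when WT 1 (0.0713) or *Sirt6* cKO 1 (0.0677) was the library left out, and passed it when WT 2 (0.0192) or *Sirt6* cKO 2 (0.0402) was. Within a library, the ratio of *Cd209b* to *Cd209a* reads was 1.15 and 0.367 in WT and 0.0726 and 0.0664 in *Sirt6* cKO.

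*Clec10a* (MGL1), a galactose-binding lectin of macrophages and dendritic cells, had 366 and 163 reads in WT and 445 and 181 in *Sirt6* cKO. *Mgl2*, its close relative that binds N-acetylgalactosamine, had 533 and 211 reads in WT and 214 and 131 in *Sirt6* cKO. In each group the first library held more of both than the second, and the groups overlapped for *Clec10a* and, by CPM, for *Mgl2* too. The log2 fold change was 0.32 ± 0.70 for *Clec10a* (SE; edgeR adjusted p = 0.940) and -1.04 ± 0.66 for *Mgl2* (SE; edgeR adjusted p = 0.717). That of *Clec10a* changed sign without WT 2 (-0.13) or without *Sirt6* cKO 1 (-0.53), and that of *Mgl2* stayed below 0 with any library left out (-1.54 to -0.27).

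The *Mgl2* to *Clec10a* ratio of reads was 1.46 and 1.29 in WT and 0.481 and 0.724 in *Sirt6* cKO. Within a library, then, *Mgl2* had more reads than *Clec10a* in both WT libraries and fewer in both *Sirt6* cKO libraries. This ratio was formed after the values were seen and has no test, and the shared sequence shown above bears on it.

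**Figure D2:**
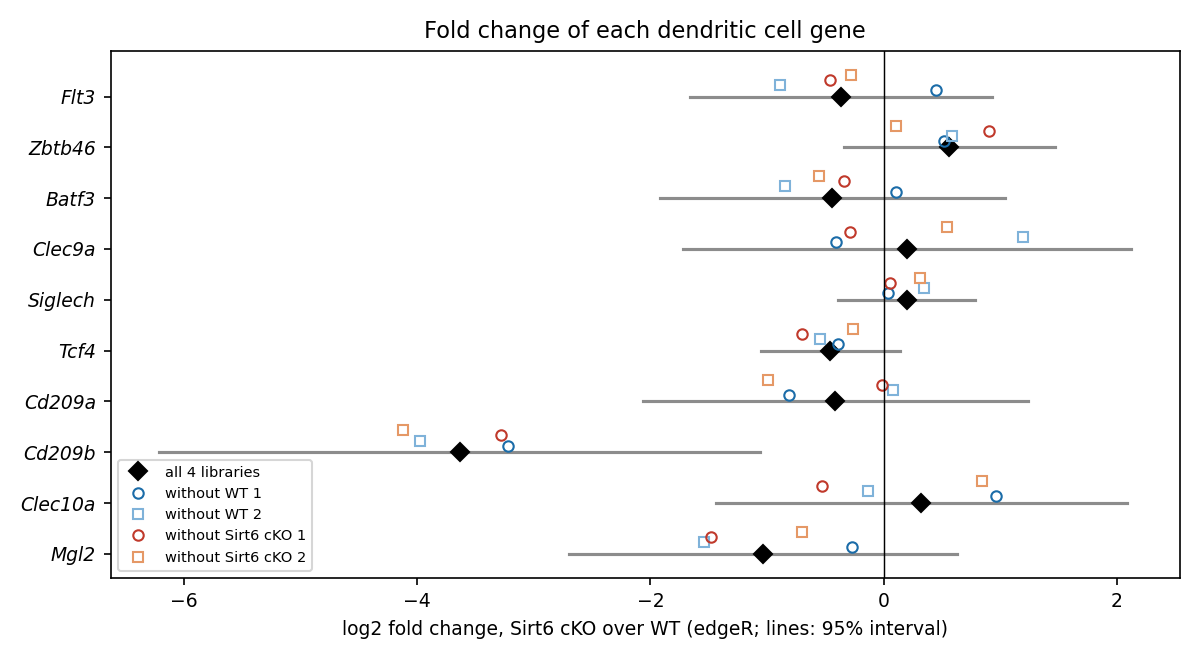
Log2 fold change of *Sirt6* cKO over WT for the 10 genes, with the edgeR value (black diamond), its 95% interval (grey line) and the value with each library left out (open symbols). The interval of *Cd209b*, from -6.21 to -1.06, is the one that lies wholly on one side of 0, and 5 genes have open symbols on both sides of 0.

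Counted over the 10 genes, 1 was lower and 0 were higher at an unadjusted p of 0.05, where 3.32% of all genes tested were lower and 5.27% higher. At an adjusted p of 0.05 edgeR called 0 of the 10, against 0.00539% of all genes, which is 1 gene. DESeq2 called 1 of the 10 as lower at an adjusted p of 0.05, against 0.823% of the genes to which it gave an adjusted p. By CPM, *Sirt6* cKO lay wholly below WT for 2 of the 10 (*Cd209b* and *Tcf4*), where 20.3% of all genes tested did, and wholly above for 1 (*Zbtb46*), where 21.6% did. Counts of 0 to 2 in 10 genes are too few to be set apart from these shares. For any one gene, the smallest p that an exact permutation of 4 libraries can give (two-sided) is 0.333.

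The median log2 fold change of the 10 genes was -0.39, beside -0.0047 over all genes tested, with 6 fitted lower and 4 fitted higher. Without WT 1 it was -0.12. Summed TPM of the 4 conventional dendritic cell genes was 42.8 and 31.5 in WT and 33.2 and 42.8 in *Sirt6* cKO, and that of *Siglech* and *Tcf4* was 86.1 and 96.1 against 99.9 and 80.3. The lectins summed to 27.2 and 18.9 TPM in WT and to 18.8 and 13.2 TPM in *Sirt6* cKO. The sums of the first 2 roles overlapped between groups, and those of the lectins came close to touching, in WT 2 and *Sirt6* cKO 1.

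The spread between libraries of one group set how much could be seen. WT 1 and WT 2 differed by over 1.5-fold in CPM for 7 of the 10 genes, 5 higher in WT 1 and 2 higher in WT 2, and *Sirt6* cKO 1 and 2 did so for 6, 3 in each direction. The absolute log2 ratio of WT 1 to WT 2 was 1.37 for *Flt3* and 1.58 for *Clec9a*, beside a median of 0.41 over all genes tested, and 0.04 for *Zbtb46* and 0.18 for *Tcf4*.

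The other genes of the dendritic cell programme were read from 8 lists of 85 genes, of which 82 were tested. At an unadjusted p of 0.05, 9 of the 82 were higher and 6 lower, beside 5.27% and 3.32% of all genes tested, and 67 did not pass. At an adjusted p of 0.05 edgeR called 0 of the 82. DESeq2 called 7 of them, against 357 of the 18961 genes to which it gave an adjusted p. The 7 were *Spib* (DESeq2 adjusted p = 4.14e-06), *Itgae* (0.00873), *Cd80* (0.0108), *Clec4n* (0.0170), *Irf4* (0.0183), *Fscn1* (0.0354) and *Clec4a1* (0.0486). The 6 lower genes became 1 without WT 1 and 3 without either *Sirt6* cKO library. Of the 15 genes called, 5 passed the unadjusted threshold with any library left out (*Itgae*, *Irf4*, *Spib*, *Fscn1* and *Cd80*). *Irf8* passed it on all 4 libraries but not with any of the 4 left out. The 9 higher genes are not all particular to dendritic cells. B cells, mTECs or other cells also use *Irf8*, *Spib*, *Relb*, *Cd80* and *Notch2*, for example.

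The list of cDC1 genes had 14 tested, with 2 higher, 1 lower and 11 that did not pass. *Irf8*, a transcription factor of cDC1s, pDCs and B cells, had 38571 and 41579 reads in WT and 46994 and 54891 in *Sirt6* cKO (log2 fold change 0.40 ± 0.15, SE; edgeR adjusted p = 0.563). *Mycl1*, the L-Myc gene that supports cDC1 proliferation, was at 963 and 744 against 1460 and 1499 reads (0.85 ± 0.29; edgeR adjusted p = 0.548). *Itgae*, the CD103 integrin chain that intraepithelial T cells also carry, was at 2293 and 3441 against 1019 and 1058 reads (-1.42 ± 0.31; edgeR adjusted p = 0.541). For these 3 genes, named for their p, the groups did not overlap, and their directions differed within a single list. By CPM, *Sirt6* cKO lay wholly above WT for 4 of the 14 and wholly below for 6. Of all genes tested, 21.6% and 20.3% did.

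The list of cDC2 genes had 9 tested, with 2 higher and 1 lower. *Irf4*, a transcription factor of cDC2s and of activated lymphocytes, had 8990 and 6909 reads in WT and 16324 and 13873 in *Sirt6* cKO (log2 fold change 0.99 ± 0.22, SE; edgeR adjusted p = 0.541). *Notch2*, a receptor that some cDC2s need, had a log2 fold change of 0.93 ± 0.35 (edgeR adjusted p = 0.562). *Clec4a1*, a C-type lectin of myeloid cells, was at 870 and 422 reads in WT and 109 and 178 in *Sirt6* cKO (-2.12 ± 0.55; edgeR adjusted p = 0.541).

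The list of pDC genes had 13 tested, with 1 higher, 1 lower and 11 that did not pass. *Spib*, an ETS transcription factor of pDCs that mature mTECs also express, had 33907 and 32819 reads in WT and 67018 and 74018 in *Sirt6* cKO (log2 fold change 1.13 ± 0.14, SE; edgeR adjusted p = 0.340). *Klk1*, a tissue kallikrein protease, was at 6320 and 6729 against 4053 and 2325 reads (-0.97 ± 0.34; edgeR adjusted p = 0.548).

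Among 15 genes of mature dendritic cells, 3 were higher, none was lower, and the median log2 fold change was 0.36. *Fscn1*, an actin-bundling protein, had 14461 and 19317 reads in WT and 40141 and 28095 in *Sirt6* cKO (log2 fold change 1.07 ± 0.27, SE; edgeR adjusted p = 0.541). *Relb*, an NF-κB subunit, had a value of 0.76 ± 0.20 (edgeR adjusted p = 0.541) on the same scale, and *Cd80*, a costimulatory ligand, one of 0.94 ± 0.20 (edgeR adjusted p = 0.541). mTECs express *Relb* and *Cd80* as well. Of the 8 mTEC markers *Epcam* (0.48 ± 0.14), *Aire* (0.65 ± 0.18) and *Cd80* were higher and *Ccl21a* lower at an unadjusted p of 0.05. Of all genes tested, 5.27% were higher and 3.32% lower. The other 4 mTEC markers did not pass, and edgeR called 0 of the 8 at an adjusted p of 0.05. At an unadjusted p of 0.05, *Ly75* (1.14 ± 0.36), a receptor of cortical epithelium and of dendritic cells, and the cortical Notch ligand gene *Dll4* (1.08 ± 0.32) were higher too. The other 3 of the 5 cortical markers did not pass and were fitted lower (list median -0.10). The fibroblast gene *Lum* (-1.14 ± 0.29) was lower at that threshold, but 4 of the 6 fibroblast markers were fitted higher (list median 0.19). The part of mTEC maturity or of other cells in these changes was not tested.

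Of 11 genes of growth and antigen presentation, *Csf2rb*, the shared chain of the GM-CSF, IL-3 and IL-5 receptors, was higher (0.87 ± 0.26; edgeR adjusted p = 0.541) and none was lower. The 6 genes of E protein partners and Id inhibitors, which work with or against the product of *Tcf4*, gave no call. All 6 had a fitted value below 0, from -1.52 ± 0.73 for *Id4* to -0.08 ± 0.16 for *Id3*, beside 50.4% of all genes tested. For *Tcf3* and *Tcf12* the groups overlapped, and the value reached 0.34 and 0.16 with 1 library left out.

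**Figure D3:**
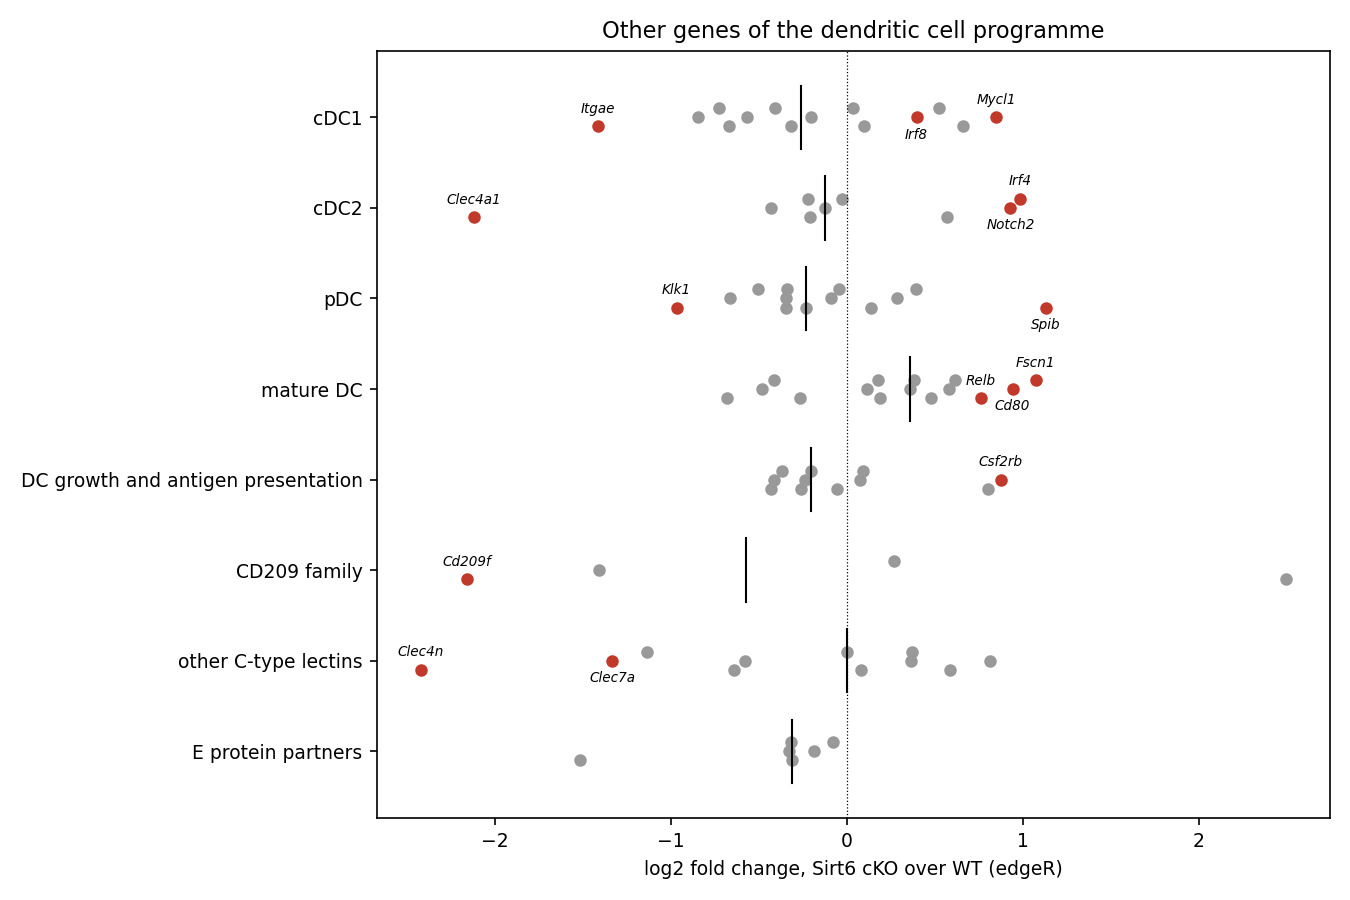
Log2 fold change of *Sirt6* cKO over WT for the 82 other genes tested, 1 point a gene, in 8 lists (*Id2* is in 2 of them). Red points with names passed an unadjusted p of 0.05 in edgeR, grey points did not, and black bars are list medians, which run from -0.57 for the CD209 family to 0.36 for mature DC.

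The relatives of *Cd209b* had fitted values on both sides of 0. *Cd209f* had 1209 and 308 reads in WT and 161 and 163 in *Sirt6* cKO (log2 fold change -2.16 ± 0.71, SE; edgeR adjusted p = 0.541), and both *Sirt6* cKO libraries were below both WT libraries. Without WT 1 its fold change was -0.92, and edgeR no longer called it (unadjusted p of 0.198). *Cd209e* had 44 and 6 reads in WT and 174 and 94 in *Sirt6* cKO, a fitted 2.50 with a 95% interval from -0.76 to 5.76, and edgeR did not call it. *Cd209d* (0.27 ± 0.59) and *Cd209g* (-1.41 ± 0.97) had overlapping groups, and *Cd209c* had 3 reads in 1 library and 0 in the others and was not tested. *Cd209f* and *Cd209g* shared 25.9% of the 50-base words of *Cd209f*, so the split of their reads is uncertain.

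Of 11 other C-type lectins, 2 were lower and none was higher at an unadjusted p of 0.05. *Clec4n* (Dectin-2), a receptor for fungal mannans, had 4358 and 1265 reads in WT and 282 and 734 in *Sirt6* cKO (log2 fold change -2.42 ± 0.73, SE; edgeR adjusted p = 0.541). *Clec7a* (Dectin-1), a receptor for fungal glucans, had 4444 and 1754 reads in WT and 1147 and 1211 in *Sirt6* cKO (-1.33 ± 0.46; edgeR adjusted p = 0.548). As for *Cd209f*, WT 1 was far above WT 2 for both genes. Without WT 1 the fold change was -1.32 for *Clec4n* and -0.57 for *Clec7a*, and edgeR called neither.

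Of 12 macrophage markers, 7 were lower in the same libraries as *Cd209b* and none was higher at an unadjusted p of 0.05, where 3.32% and 5.27% of all genes tested were: *Emr1* (F4/80), *Cd68*, *C1qa*, *C1qb*, *C1qc*, *Lyz2* and *Timd4*. The other 5 did not pass, and *Marco* among them had a fitted value above 0 (0.13 ± 0.40). Without *Sirt6* cKO 1 it was 3 of the 12, and with another library left out 6 to 8. The list summed to 11456 and 6761 TPM in WT and to 4153 and 4474 TPM in *Sirt6* cKO, and without *Lyz2*, its most abundant gene, to 1924 and 820 TPM against 490 and 519. No marker of the list was at 0, and the lowest, *Fcgr1*, was at 0.375 to 0.621 TPM. *C1qc*, a complement gene of tissue macrophages and the marker with the lowest fold change, had 10862 and 4025 reads in WT and 1699 and 2045 in *Sirt6* cKO (log2 fold change -1.93 ± 0.48, SE; edgeR adjusted p = 0.541). DESeq2 called 5 of the 12 as lower at an adjusted p of 0.05, against 0.823% of the genes to which it gave one. These were *C1qc* (DESeq2 adjusted p = 0.00320), *C1qb* (0.0271), *Cd68* (0.0276), *Lyz2* (0.0297) and *C1qa* (0.0343), beside 0.0435 for *Cd209b*. The fitted decrease of *Cd209b* was larger than that of any of the 12 markers, but its interval includes the value of *C1qc*. The part of macrophage RNA in the *Cd209b* result was not tested.

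The other leukocyte markers gave no call. Of 9 genes of all leukocytes, 11 thymocyte genes and 6 B cell genes, edgeR called none at an unadjusted p of 0.05. DESeq2 called none of them at an adjusted p of 0.05. Fitted lower were 6 of the 9 leukocyte genes (median log2 fold change -0.12), 9 of the 11 thymocyte genes (-0.44) and 5 of the 6 B cell genes (-0.35). Of all genes tested, 50.4% were fitted lower. *Ptprc*, for CD45, had 23695 and 16820 reads in WT and 26127 and 20558 in *Sirt6* cKO, and these overlapped. Relative to *Ptprc*, *Flt3* was at 7.73% and 4.22% in WT and at 3.66% and 4.39% in *Sirt6* cKO by TPM. WT 1 held the most *Flt3*, *Batf3*, *Tcf4*, *Mgl2* and *Cd209b* of the 4 libraries and the least *Zbtb46*, *Clec9a* and *Siglech*. It also held the most *Lyz2*, *C1qc* and summed macrophage markers. Summed thymocyte, B cell and endothelial markers were highest in WT 1 too. Thymocyte genes summed to 1505 TPM there against 735 to 1259 in the other libraries. B cell genes summed to 254 TPM against 167 to 219, and endothelial genes to 69.5 TPM against 41.8 to 53.4. Fibroblast markers and the genes of all leukocytes were not highest in WT 1. The latter summed to 3453 TPM in WT 1 and to 3464 TPM in *Sirt6* cKO 1.

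**Figure D4:**
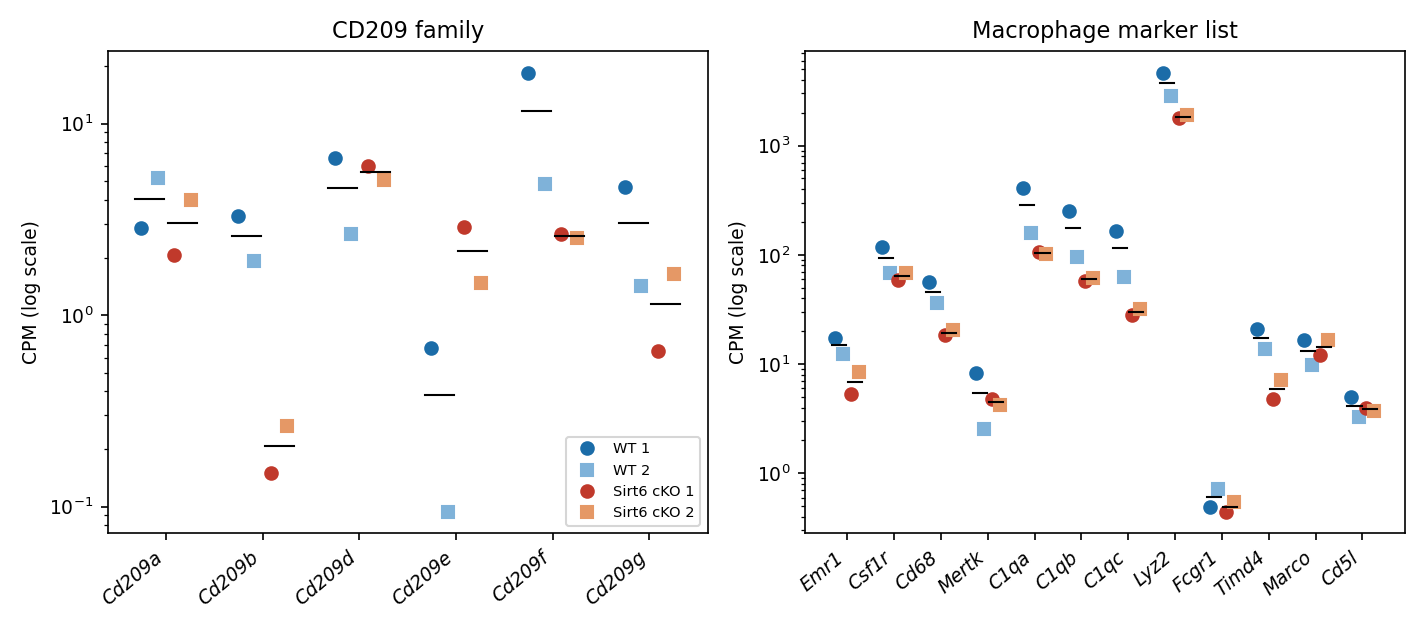
CPM (log axis) by library for the 6 CD209 genes with reads enough to be tested (left) and for the 12 macrophage markers (right), WT in blue and *Sirt6* cKO in red and orange, with a black bar at each group's mean. *Cd209b* is at 3.28 and 1.92 CPM in WT and at 0.149 and 0.265 CPM in *Sirt6* cKO, and *Cd209a* and *Cd209d* overlap between groups.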

How the data were processed

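The data are RNA-seq of sorted mTECs, with 2 libraries in each of 2 groups. Per the study's methods, Trim Galore trimmed the reads, HISAT2 2.1.0 mapped them to the mm10 genome, and StringTie 1.3.3 gave both the counts and the TPM. The gene annotation and the strand setting are not given in the sources used here. The authors deposited raw counts per gene, as whole numbers. The deposited TPM values had been scaled by the authors for transcript length and library, and a last line without a gene name, which held the column total, was left out. The 10 genes and all lists were chosen with earlier results of these data known.

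Counts were tested on the whole table with edgeR 4.0.16 (TMM, filterByExpr, glmQLFit and glmQLFTest) in R 4.3.3, with Benjamini-Hochberg adjustment over 18547 genes. The biological coefficient of variation was 0.557. CPM used the TMM factors. DESeq2 1.42.0 and limma 3.58.1 on log2(TPM + 1) and log2(TPM + 0.1) were alternatives, beside other filters, other normalizations, a prior count of 2, a replicate block and each library left out. The test was checked on simulated counts drawn with the same biological coefficient of variation for all genes. The check therefore does not cover differences in spread between genes. All 10 genes were named, together with each gene of the 8 lists at an unadjusted p under 0.05, and, for a list with no such gene, its extremes. The remaining CD209 genes and the cell type markers were named after their values had been seen. Symbols of 4 list genes were matched through older names. Upstream sequences came from the RefSeq table, and coding sequences and positions from GENCODE on GRCm38.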

Additional observations from a re-analysis of the deposited data

How the results depend on the processing

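Over the 9 alternatives on all 4 libraries, the fold changes of the 10 genes kept their direction and their side of an unadjusted p of 0.05 in all 90 values. The prior count of 2, 1 of the 9, leaves p as it was, so its values could not cross that threshold. With DESeq2, 1 of the 10 passed an adjusted p of 0.05 in place of 0. Leaving out 1 library moved the number lower at an unadjusted p between 0 and 1, being 0 without WT 1 or without *Sirt6* cKO 1, and moved the companion genes lower from 6 to between 1 (without WT 1) and 6. The fold change changed sign in 7 of 40 such values. It ranged from -0.89 to 0.45 for *Flt3* and from -0.85 to 0.11 for *Batf3* (both above 0 without WT 1), from -0.41 to 1.20 for *Clec9a* (below 0 without WT 1 or without *Sirt6* cKO 1), from -0.99 to 0.083 for *Cd209a* (above 0 without WT 2), and from -0.53 to 0.96 for *Clec10a* (below 0 without WT 2 or without *Sirt6* cKO 1). The cause was not tested. Where a group kept 1 library, that library was assumed to vary like the other group.

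With the replicate number as a block, 1 of the 10 genes was lower and 0 higher at an unadjusted p of 0.05, 0 passed an adjusted p, the median log2 fold change was -0.29, and 5 companion genes were lower and 7 higher. The correlation of deviations of same-numbered libraries was -0.0507 across genes, and the labels name no shared litter or day, so the libraries share only a number. The fold changes of the 15 companion genes called kept their direction in all 135 values on 4 libraries and fell short of the threshold in 15 of them. The values with a prior count of 2 are again among the 135 and could not cross it. With 2 libraries a group and a biological coefficient of variation of 0.557, the intervals of 9 of the 10 genes include 0 and are wide.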
